A study of Mus musculus musculus x M. m. domesticus and Mus musculus musculus x Mus musculus castaneus and Mus musculus domesticus with 42 samples.

Results

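Carboxylesterases are a family of enzymes that cut ester bonds in drugs, pesticides and lipids. The members described here were the 10 mouse genes Ces1c, Ces1d, Ces1e, Ces1f, Ces1g, Ces2a, Ces2b, Ces2c, Ces2e and Ces3a, and every probe set whose platform gene symbol is or includes one of them was taken. This gave 11 of the 45037 probe sets on the array and 9 of the 19324 genes its annotation names. Of the genes, 8 had a probe set with a single symbol, and Ces1d had 3 of these. Ces3a was read only through 1 probe set annotated to both Ces3a and Ces3b, which therefore names neither gene alone, and Ces2c had no probe set in the annotation used here.

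The study hybridised RNA of 3 tissues (brain, liver, testis) from 14 male mice to Affymetrix 430 2.0 arrays, 42 arrays in total, and each of the 7 genotypes had 2 males. The parents were wild-derived inbred lines of 3 subspecies of the house mouse, Mus musculus, here called musculus, domesticus and castaneus, so that each subspecies was represented by 1 inbred line as far as the labels tell. The F1 males came from both directions of the musculus and domesticus cross and of the musculus and castaneus cross, written here with the mother first. The study asked whether transcripts that differ between parents lie midway between them in the F1, and whether any F1 lies beyond both parents. Domesticus males were 45 days old, musculus and castaneus males 47 days, F1 males with a musculus mother 53 days, domesticus x musculus F1 males 50 days and castaneus x musculus F1 males 54 days. Outside the comparison of castaneus with musculus, and of F1 with a musculus mother, age and genotype cannot be told apart. No treatment is given in the labels. Within each genotype and tissue the signals of the paired males correlated at 0.958 to 0.981 over all probe sets. Hepatocyte markers, with probe sets for 9 of the 9 genes listed, summed to between 176732 and 266868 in the liver arrays, 12512 and 18485 in brain and 565 and 5257 in testis. Ttr is both in this list and in a list of choroid plexus markers, whose sum in brain was 13374 to 19471. The part of Ttr in the brain sums was not tested. Male germ cell markers, with probe sets for 6 of 6 genes, summed to between 76948 and 137616 in testis, 383 and 854 in brain and 1182 and 2761 in liver. Neural markers, with probe sets for 5 of 6 genes, summed to between 48979 and 64881 in brain, 491 and 944 in testis and 1199 and 2757 in liver.

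Mammalian carboxylesterases are serine hydrolases, most of which stay in the lumen of the endoplasmic reticulum, and liver is their main site of expression. The mouse genes arose by tandem duplication and fall into subfamilies. Members of the first subfamily process drugs, cholesteryl esters and stored triglyceride, and those of the second hydrolyse esters with small acyl groups and, in part, glycerolipids. Because sister genes are close in sequence, probe sets can cross-hybridise; the suffixes _s_at and _x_at mark probe sets that the array's design flags as shared with, or similar to, other transcripts.

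In liver all 11 probe sets passed the filter on weak signals, and the family fell into a variable and a stable group between subspecies. Ces2a and Ces1g were low in musculus and high in both other subspecies. Ces2b was high in castaneus alone of the parents, Ces2e was near the bottom of the scale in castaneus alone, and Ces1e was highest in domesticus. Ces1c, Ces1f and the Ces3a/Ces3b probe set did not pass the test in any parental comparison.

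**Figure D1:**
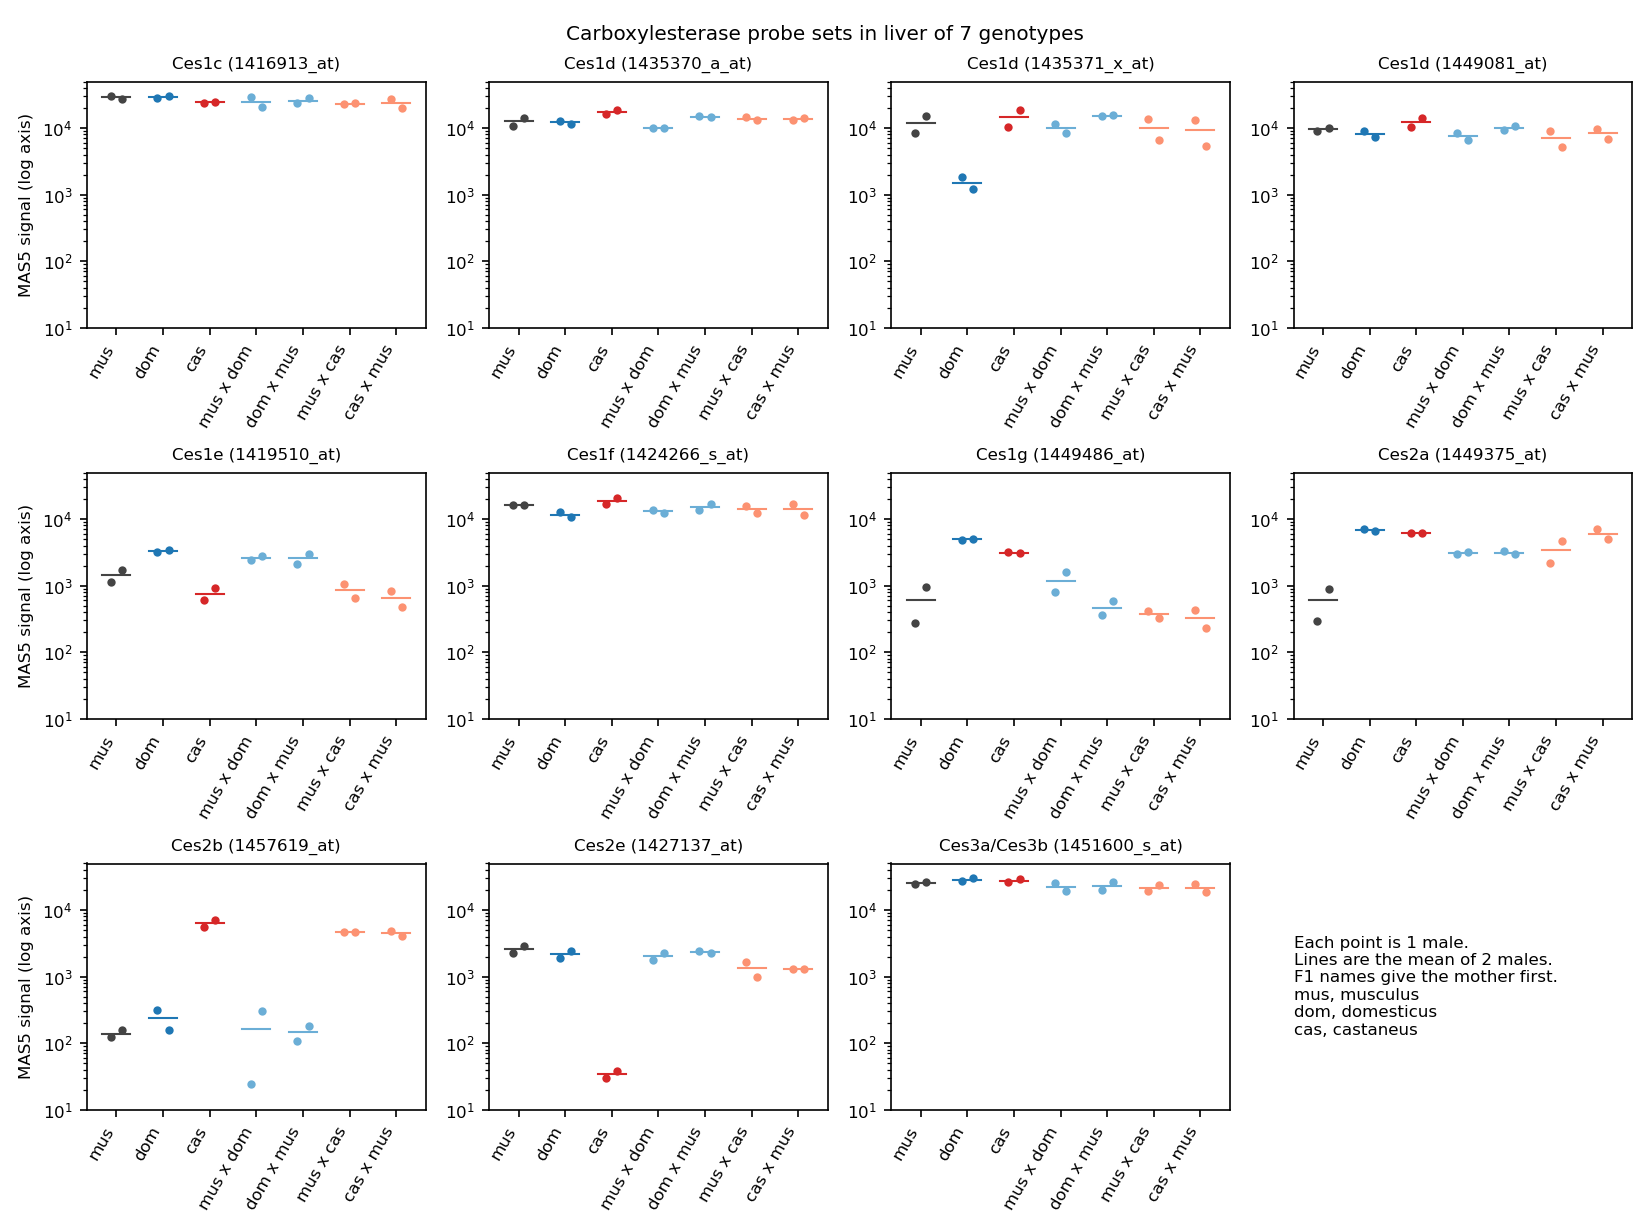
MAS5 signal on a log axis in liver for the 11 carboxylesterase probe sets, with 1 point per male, the line at the mean of 2 males, and genotypes on the horizontal axis. Ces2b stands at 5644 and 7132 in castaneus against 124 and 155 in musculus, Ces2e at 30 and 38 against 2294 and 2838, while Ces1c and Ces3a/Ces3b lie within a narrow band in every genotype.

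Tests were made with limma on log2(signal + 31) over all 14 liver arrays, where 31 is the 20th percentile of all deposited values, and a difference was called at a Benjamini-Hochberg adjusted p under 0.05 over the 27022 probe sets tested. All differences and standard errors below are on that scale, which understates the change of weak signals. Of the 11 members tested in liver, 4 were called between domesticus and musculus (3 higher and 1 lower in domesticus), where 6.17% of all probe sets tested were called. Between castaneus and musculus 4 were called (3 higher and 1 lower in castaneus), against 6.55% of all. Between castaneus and domesticus 4 were called (2 higher and 2 lower in castaneus), against 6.12%. The first 2 of these comparisons share the musculus arrays. In all, 6 probe sets were called in at least 1 of the 3 comparisons, and 5 in none, the largest absolute difference among the latter being 0.70. The share of all probe sets called in at least 1 of the 3 was not computed, so this pooled count has no background beside it.

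Ces2a encodes a liver and intestinal carboxylesterase of the second subfamily. Its liver signal was 296 and 902 in the 2 musculus males, 7126 and 6552 in domesticus and 6184 and 6161 in castaneus. The musculus males thus lay below all males of both other subspecies, and on the log scale they differed from each other by more than the others did. Domesticus exceeded musculus by 3.64 ± 0.41 (SE; adjusted p = 0.000143), and castaneus exceeded musculus by 3.49 ± 0.41 (adjusted p = 0.000196). Without the first musculus male these differences were 2.88 and 2.73, and without the second 4.39 and 4.25, all of them called. Castaneus and domesticus differed by -0.15, with a 95% interval from -1.03 to 0.74.

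The Ces1g signal followed the same order of subspecies. Ces1g, also known as esterase-x, is a hepatic enzyme that takes part in the control of triglyceride secretion and lipid synthesis. Its signal was 272 and 946 in musculus, 4883 and 5002 in domesticus and 3185 and 3055 in castaneus. The differences from musculus were 3.19 ± 0.47 (adjusted p = 0.00114) for domesticus and 2.53 ± 0.47 (adjusted p = 0.00568) for castaneus. Without the first musculus male the domesticus difference was 2.35 and still called, whereas the castaneus difference was 1.69, with an adjusted p of 0.0563, and was not called. Without the second they were 4.04 and 3.38, both called. In Ces1g, as in Ces2a, the first musculus male had the lower signal of the pair. Macrophage markers, with probe sets for 6 of 6 genes and none of them at 0, had their lowest sum among the parents in musculus liver. The sum was 6708 to 7203 there, 10098 to 11035 in domesticus and 13416 to 16555 in castaneus. It was thus higher in castaneus than in domesticus, which was not so for the Ces2a and Ces1g signals. The part of macrophages in the Ces2a and Ces1g differences was not tested.

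Ces2b, another gene of the second subfamily, set castaneus apart from both other parents. Its signal was 5644 and 7132 in castaneus, against 124 and 155 in musculus and 316 and 158 in domesticus, and the groups did not overlap. Castaneus exceeded domesticus by 4.64 ± 0.59 (adjusted p = 0.000408), a 24.9-fold difference. Domesticus minus musculus was 0.59, with a 95% interval from -0.68 to 1.87, so that a several-fold difference between these 2 is within the error.

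Ces2e showed the opposite pattern. Its signal was 2294 and 2838 in musculus, 1893 and 2436 in domesticus, and 30 and 38 in castaneus. The castaneus values lie at the level of the added offset and within the range of 8 to 43 that the same probe set had in brain, so the size of the difference depends on the offset. Castaneus minus domesticus was -5.07 ± 0.24 (adjusted p = 8.9e-08), or -5.95 with an offset of 1 and -4.07 with an offset of 100, and domesticus minus musculus was -0.25, with a 95% interval from -0.77 to 0.28.

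**Figure D2:**
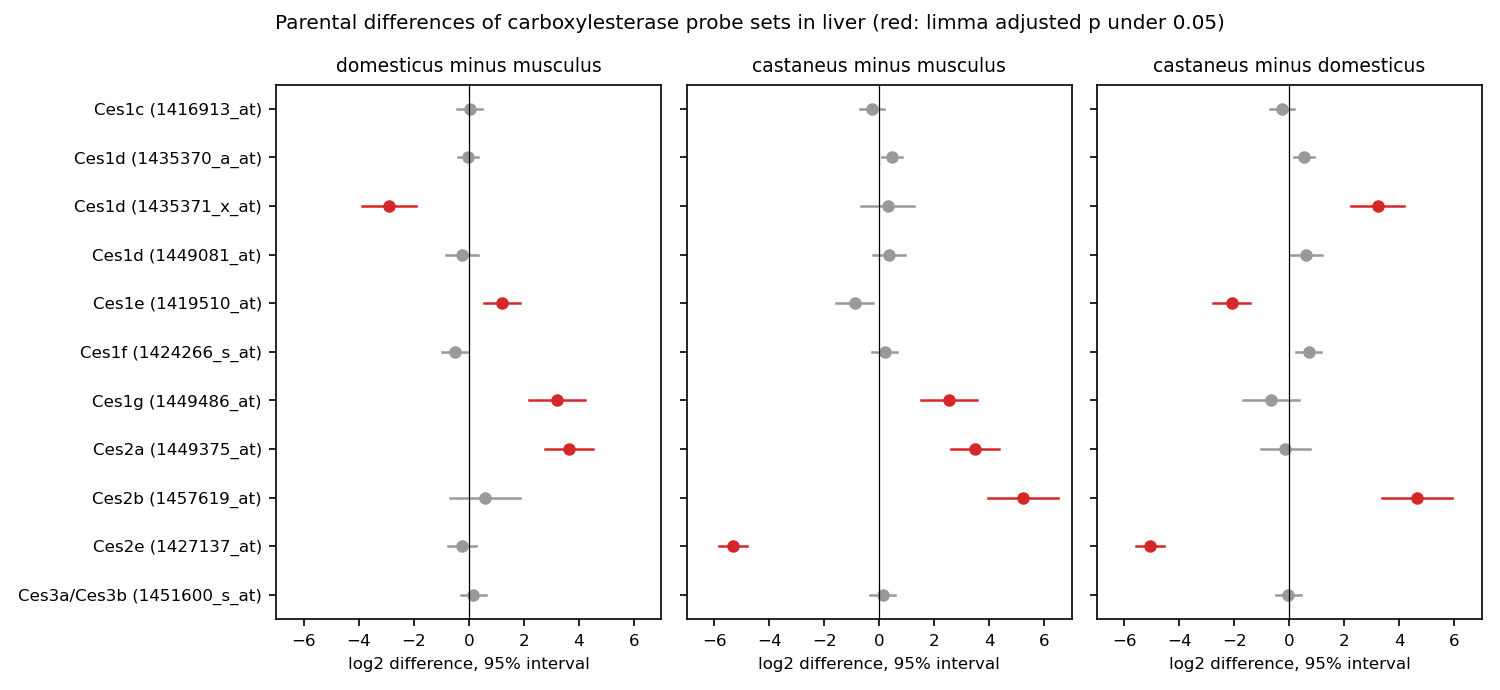
Log2 differences between parental subspecies in liver for each carboxylesterase probe set, with 95% intervals from the limma fit and called differences in red. Ces2b at 5.23 and Ces2e at -5.32 mark the ends of the castaneus minus musculus comparison, and Ces2a and Ces1g are called against musculus in both left panels.

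In the first subfamily, Ces1e encodes egasyn, which holds part of the beta-glucuronidase of liver in the endoplasmic reticulum. Its signal was 1149 and 1710 in musculus, 3145 and 3417 in domesticus and 610 and 906 in castaneus, an order without overlap. Castaneus minus domesticus was -2.09 ± 0.31 (adjusted p = 0.00124). Domesticus was higher than musculus by 1.21 ± 0.31 (adjusted p = 0.0361), and this call was lost without either domesticus male (adjusted p = 0.105 and 0.145), without the first musculus male (0.93, adjusted p = 0.281) and with no filter on weak probe sets (adjusted p = 0.0515). Castaneus minus musculus was -0.89 (adjusted p = 0.12) and was not called.

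Ces1d, also known as triacylglycerol hydrolase, mobilises stored triglyceride for secretion in lipoproteins, and its 3 probe sets disagreed. The brightest in liver, 1435370_a_at, lay between 9938 and 18593 in all 14 livers, and 1449081_at lay between 5128 and 14171. Neither was called between parents. The probe set 1435371_x_at, in contrast, read 1825 and 1199 in domesticus, below 8398 and 15135 in musculus and 10466 and 18530 in castaneus. Domesticus minus musculus was -2.90 ± 0.45 (adjusted p = 0.00157) and castaneus minus domesticus was 3.21 ± 0.45 (adjusted p = 0.000797) for 1435371_x_at. For 1435370_a_at the first of these was -0.03, with a 95% interval from -0.40 to 0.33, which excludes a difference of that size. The low domesticus value therefore belongs to 1 of 3 Ces1d probe sets, and whether sequence differences at the probe sites lowered it, or any other signal here, was not tested.

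For the other members not called between parents, the range over all 14 livers is given. Ces1c, a carboxylesterase that rodents secrete into plasma, had liver signals from 19973 to 30155, and its parental differences lay between -0.28 and 0.02. The probe set of Ces3a and Ces3b ranged from 18404 to 29808, with parental differences between -0.04 and 0.16 and 95% intervals within -0.48 and 0.61. Ces1f, a triacylglycerol hydrolase close to Ces1d, was read only through 1424266_s_at, flagged as shared with other transcripts, and ranged from 10625 to 20973. Its largest parental difference was castaneus minus domesticus at 0.70 (95% interval 0.24 to 1.16, adjusted p = 0.0777), which was not called.

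In the F1 livers the called members behaved in different ways, and each case is given first as signals. In the castaneus cross the Ces2e signal was 1650 and 996 in musculus x castaneus males and 1302 and 1313 in castaneus x musculus males. All 4 F1 males lay below both musculus males and far above both castaneus males. The arithmetic mean of the parents was 1300, and the F1 means were 101.8% and 100.6% of it. On the log2 scale the F1 exceeded the mean of the parents by 1.70 ± 0.17 (adjusted p = 0.000845), which is where an F1 near the arithmetic mean falls when one parent is near the floor. With the midparent taken on the linear scale the difference was 0.00, with a 95% interval from -0.44 to 0.45.

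Ces2b in the castaneus cross read 4716 and 4724 in musculus x castaneus males and 4896 and 4109 in castaneus x musculus males. These values lay between the parents and nearer to castaneus, at 144.6% and 138% of the arithmetic mean of the parents. The F1 exceeded musculus by 4.77 ± 0.51 (adjusted p = 0.00028). The difference from castaneus was -0.46 (95% interval -1.57 to 0.64), and that from the log2 midparent was 2.15 ± 0.42 (adjusted p = 0.0633), neither of them called. With a linear midparent it was 0.50, with a 95% interval from -0.58 to 1.59. In the domesticus cross the Ces2b signal ranged from 24 to 301 in the 4 F1 males and overlapped both parents.

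**Figure D3:**
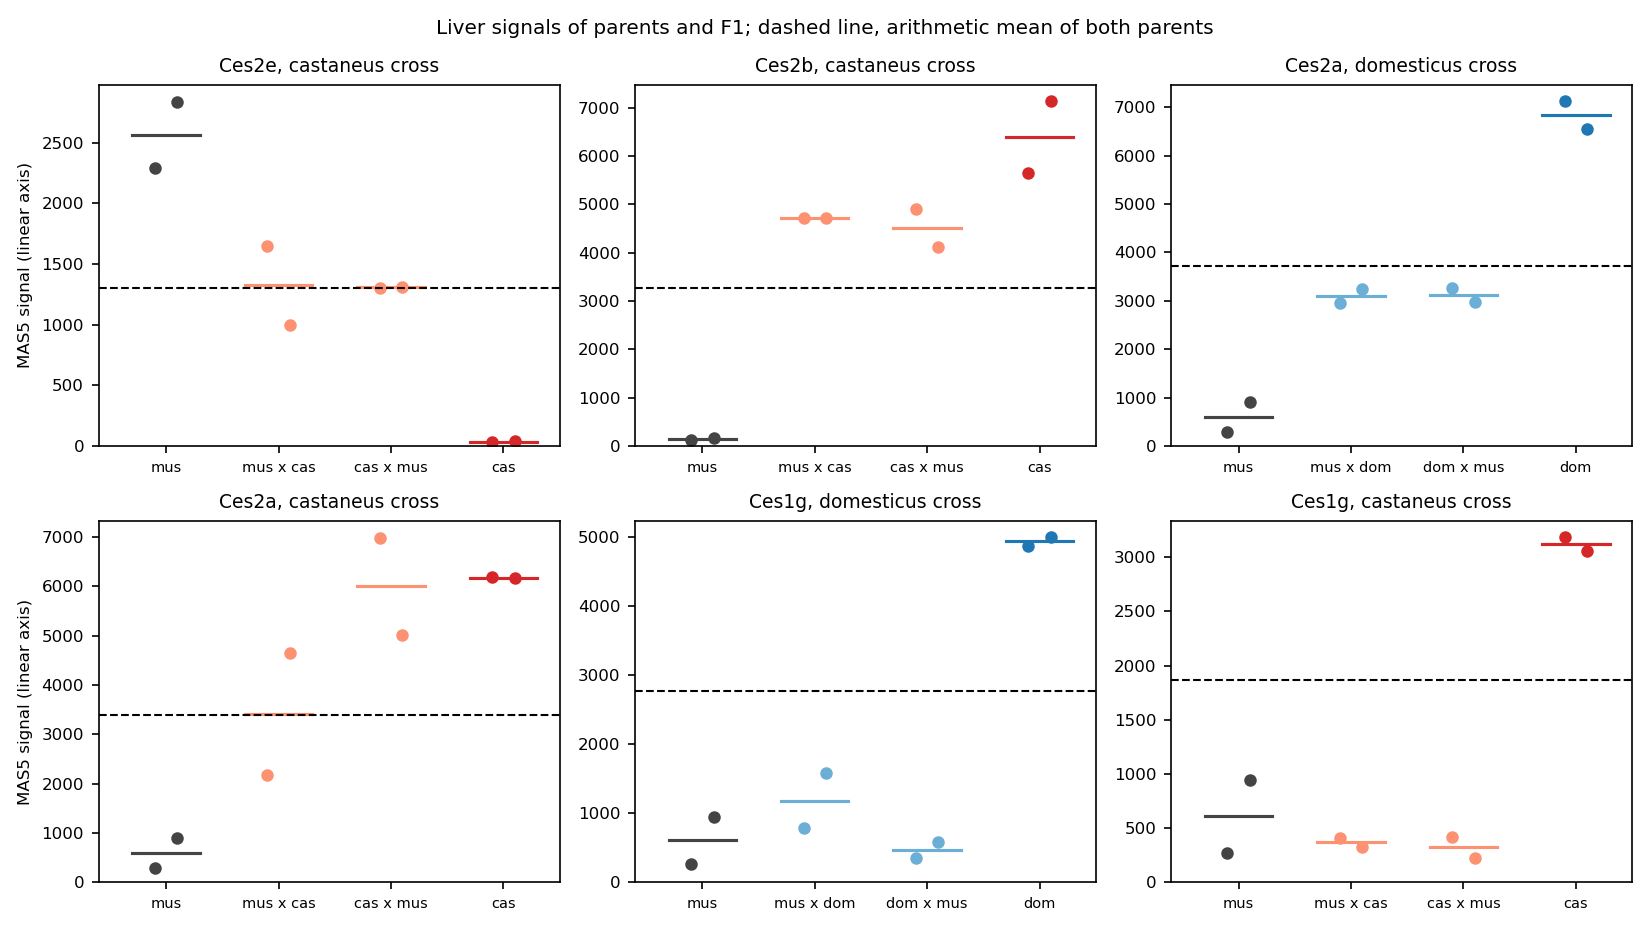
Liver signals on a linear axis for parents and F1 males, with 1 point per male, the solid line at the mean of 2 males and the dashed line at the arithmetic mean of the parents. Ces2e in the F1 lies at the dashed line, Ces2b above it, and Ces1g in the castaneus cross at 19.76% and 17.48% of it.

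Ces2a in the domesticus cross read 2953 and 3250 in musculus x domesticus males and 3267 and 2971 in domesticus x musculus males. The 4 values lay close together between the parents, at 83.4% and 83.87% of their arithmetic mean. The F1 exceeded musculus by 2.51 ± 0.35 (adjusted p = 0.00252; 1.75 without the first and 3.26 without the second musculus male, both called), 1 of the 11 members called there, against 1.74% of all probe sets tested. In the castaneus cross Ces2a was 2185 and 4646 in musculus x castaneus males and 6988 and 5003 in castaneus x musculus males. Here the F1 were more spread, with 1 male of the second kind above both castaneus parents. The F1 exceeded musculus by 2.99 ± 0.35 (adjusted p = 0.000629), or by 2.23 and 3.74 without the first and the second musculus male. The reciprocal difference of -0.88 (95% interval -1.77 to -0.0037, adjusted p = 0.9999) was not called.

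Ces1g was low in F1 of both crosses although 1 parent of each was high. In the domesticus cross it read 789 and 1580 in musculus x domesticus males and 356 and 580 in domesticus x musculus males. In the castaneus cross it read 410 and 327 in musculus x castaneus males and 423 and 229 in castaneus x musculus males. All 8 F1 males lay below all 4 males of the high parents, and 7 of them lay within or below the musculus range of 272 to 946. The F1 minus domesticus difference was -2.73 ± 0.41 (adjusted p = 0.00532) and the F1 minus castaneus difference -3.09 ± 0.41 (adjusted p = 0.00135). The first of these calls was lost without either domesticus male (adjusted p = 0.0575 and 0.0624). The macrophage marker sum in F1 liver was 5452 to 5994 in musculus x domesticus, 7339 to 7792 in domesticus x musculus, 4658 to 9988 in musculus x castaneus and 6952 to 9118 in castaneus x musculus males. These sums were below both high parents. Ces2a, unlike Ces1g, read above both musculus males in all 8 F1 livers. The part of macrophages in the Ces1g and Ces2a values of the F1 was not tested. Against musculus, Ces1g in the F1 differed by 0.46 (95% interval -0.42 to 1.34) in the domesticus cross and -0.56 (-1.44 to 0.32) in the castaneus cross, which were not called. The F1 means were 42.67% and 16.86% of the arithmetic midparent in the domesticus cross. Set against the log2 midparent, the castaneus cross differed by -1.83 ± 0.33 (adjusted p = 0.0472) and the domesticus cross by -1.14 ± 0.33 (adjusted p = 0.484). The castaneus cross call was lost in 13 of 16 alternative settings, among them the linear midparent (-2.32, adjusted p = 0.0747) and leaving out any 1 of 7 of the 8 males compared.

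The remaining members called between parents took the level of 1 parent or lay between both. Ces1e in the domesticus cross read from 2122 to 3008 in the 4 F1 males, above both musculus and below both domesticus males, at 110.2% and 108.9% of the arithmetic midparent. In the castaneus cross Ces1e ranged from 484 to 1064, overlapping the castaneus parent. The Ces1d probe set 1435371_x_at ranged from 8437 to 15534 in the domesticus cross. These F1 exceeded domesticus by 3.02 ± 0.39 (adjusted p = 0.00186) and overlapped musculus.

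Over the whole set of liver F1 tests, few members were called after adjustment. Of 11 members, 2 were called against the log2 midparent in the castaneus cross (Ces2e and Ces1g; 0.241% of all probe sets tested), and 0 with a linear midparent (0.0259% of all). In the domesticus cross 0 were called on either scale (0.178% of all on the log2 scale and 0.0037% on the linear scale). Limma placed 0 members outside both parents in either cross (0.0% and 0.0037% of all), with 0 members at an unadjusted p under 0.05 in either. Between reciprocal F1 0 members were called, against 0.0888% of all probe sets in the domesticus cross and 0.037% in the castaneus cross. At an unadjusted p under 0.05, limma gave 3 members against the log2 midparent in the domesticus cross and 8 in the castaneus cross. It gave 2 and 5 against the linear midparent in the domesticus and castaneus crosses, and 2 and 1 between reciprocal F1. The share of all probe sets at an unadjusted p under 0.05 was not computed, so nothing is read from these unadjusted counts. Against each parent, the counts were 1 and 2 members in the domesticus cross (musculus first; 1.74% and 0.896% of all) and 3 and 2 in the castaneus cross (1.32% and 1.58%). The liver of the second musculus x castaneus male held exocrine pancreas transcripts: the summed signal of 6 of 8 marker genes was 66452 there and between 1065 and 10738 in the other 13 livers. Parental livers had sums of 1065 to 3195. The F1 sums were 8019 to 10738 in musculus x domesticus, 3162 to 5532 in domesticus x musculus, 3828 in the first musculus x castaneus male and 5020 to 5887 in castaneus x musculus males. The part of pancreas tissue in the differences between F1 and parents was not tested. Without the array of the second musculus x castaneus male the Ces2e difference from the log2 midparent was 1.87, and that of Ces1g was -1.75. The Ces2e difference of castaneus cross F1 from musculus was -0.78 without it and -0.96 with it. This call against musculus, 1 of the 3, was lost in 8 of 11 alternative settings.

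Genes that share the substrates or the control of carboxylesterases were read from lists in the same fits. Of 10 further carboxylesterase genes, 5 had a probe set, 4 were tested in liver (Ces1h, Ces2g, Ces4a and Ces5a) and limma called 0 between parents, with 0, 1 and 0 at an unadjusted p under 0.05 in domesticus minus musculus, castaneus minus musculus and castaneus minus domesticus. Over all probe sets 6.17%, 6.55% and 6.12% were called in these comparisons, so 0 of 4 does not set this list apart. Of 16 other esterases and lipases tested, 2 were higher and 3 lower in domesticus than in musculus (6.17% of all probe sets called). Their median was -0.27 against -0.05 over all probe sets. The higher were Afmid, the formamidase of tryptophan breakdown (1.88 ± 0.22), and Bphl (1.13 ± 0.22). The lower were Pnpla3, a lipid droplet protein (-2.83 ± 0.54), butyrylcholinesterase Bche (-1.26 ± 0.24) and the monoacylglycerol lipase Abhd6 (-0.88 ± 0.18). In castaneus against musculus Mgll, the main monoacylglycerol lipase, was higher (1.40 ± 0.16) and Pnpla3 was lower (-2.01 ± 0.54), with a median of 0.19 against -0.06. These were 2 of 16, against 6.55% of all probe sets. Castaneus against domesticus had 2 higher (Mgll and Bche) and 2 lower (Bphl and Afmid), against 6.12% of all probe sets, with a median of 0.27 against -0.01.

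Of 12 listed regulators of these genes tested, 1 was called, Ppara, the fatty acid sensor, at 1.08 ± 0.23 in domesticus minus musculus, and limma called 0 in castaneus minus musculus and castaneus minus domesticus, with 3 and 2 at an unadjusted p under 0.05. Over all probe sets 6.17%, 6.55% and 6.12% were called in the 3 comparisons, so counts this small do not set the list apart. The xenobiotic receptors Nr1i2 (PXR) and Nr1i3 (CAR) were not called in any of the 3, with values from -0.57 to -0.18 and from -0.96 to -0.05. Of 10 other target genes of these receptors, domesticus minus musculus had 1 higher (Cyp2b9, 2.88 ± 0.38) and 2 lower (the transporters Slco1a4, -2.43 ± 0.54, and Abcc2, -2.33 ± 0.32), with a median of 0.11. Castaneus minus musculus had 1 lower, Cyp2b10 at -1.72 ± 0.47. Its probe set, shared with similar transcripts, read 9 and 43 in castaneus and 130 and 169 in musculus. Castaneus minus domesticus had 2 higher (Slco1a4 and Abcc2) and 2 lower (Cyp2b10 and Cyp2b9). Of 14 genes of triglyceride storage and lipoprotein assembly, 1 was called, Tm6sf2 at -2.08 ± 0.37 in castaneus minus musculus (6.55% of all probe sets), while Mttp and Apob, which build very low density lipoprotein, were not called.

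As a description without a test, the tested genes whose log2 values were closest to a member over the 14 liver arrays were named. For Ces2b these were Lratd2 (Pearson r = 0.96), the sulfotransferase Sult3a1 (0.96) and Scai (0.96). For Ces2e they were the cytochrome P450 Cyp2j9 (0.98), Mrpl1 (0.98) and Mrap (0.98), and for Ces1e Rbfa (0.97), Setd3 (0.94) and Ropn1l (0.94). For Ces2a they were Sf1 (0.94), Bloc1s2 (0.93) and Psmd6 (0.93), and for Ces1g Adamtsl2 (0.89), Cyb561 (0.89) and Tmem176b (0.88). For Ces1d, by its brightest probe set, they were Eci3 (0.89), Klhdc10 (0.88) and Relch (0.88). The arrays come in 7 pairs of 1 genotype, so any genes that differ between the same subspecies score high. Among the members themselves, r was 0.84 for Ces1f with Ces1d (1449081_at), 0.77 for Ces1c with Ces3a/Ces3b and -0.82 for Ces1e with Ces2b. The Ces1f probe set is flagged as shared with other transcripts, and the part of cross-hybridisation in its r with Ces1d was not tested.

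Testis held a smaller set of carboxylesterase signals with subspecies differences of its own. Only 5 of the 11 probe sets passed the filter on weak signals: Ces1c, the 3 of Ces1d and that of Ces3a/Ces3b. Ces1c passed through the genotypes that carry a castaneus genome, so its call follows in part from the filter. The Ces1c signal was 1343 and 1549 in castaneus testis, against 6 and 4 in musculus and 6 and 6 in domesticus. Castaneus minus domesticus was 5.32 ± 0.23 (adjusted p = 8.1e-09). In the same parents, liver Ces1c did not pass the test, and the difference between tissues of castaneus minus musculus was itself called (liver minus testis -5.61 ± 0.30, adjusted p = 3.7e-13).

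In F1 testis Ces1c read 387 and 505 in musculus x castaneus males and 694 and 829 in castaneus x musculus males, all below castaneus and above musculus. In the domesticus cross it read between 5 and 10. The castaneus F1 means were 61.47% and 105% of the arithmetic midparent of 725.5. The F1 exceeded the log2 midparent by 1.41 ± 0.16 (adjusted p = 0.000447), whereas with a linear midparent the difference was -0.30 (95% interval -0.73 to 0.12). The summed hepatocyte markers in testis were 654 to 1045 in musculus, 2577 to 2720 in domesticus, 735 to 1145 in castaneus, 1862 to 5257 in F1 of the domesticus cross and 565 to 2207 in F1 of the castaneus cross. Their part in the Ces1c differences was not tested.

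Ces1d in testis rose from musculus to both other subspecies by 2 of its 3 probe sets. The brightest, 1435370_a_at, read 55 and 120 in musculus, 498 and 541 in domesticus and 803 and 619 in castaneus. Domesticus exceeded musculus by 2.27 ± 0.28 (adjusted p = 8.5e-05) and castaneus exceeded it by 2.69 ± 0.28 (adjusted p = 2.2e-05). The second, 1449081_at, read 114 and 109 in musculus, 329 and 448 in domesticus and 744 and 538 in castaneus, with differences of 1.54 ± 0.21 and 2.22 ± 0.21. The third, 1435371_x_at, read 67 and 116 in musculus, 80 and 128 in domesticus and 277 and 304 in castaneus. It was called for castaneus minus musculus (1.42 ± 0.42, adjusted p = 0.0403), but 7 of 9 alternative settings lost this call, and in domesticus it stayed at the musculus level (0.15, 95% interval -0.77 to 1.06).

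**Figure D4:**
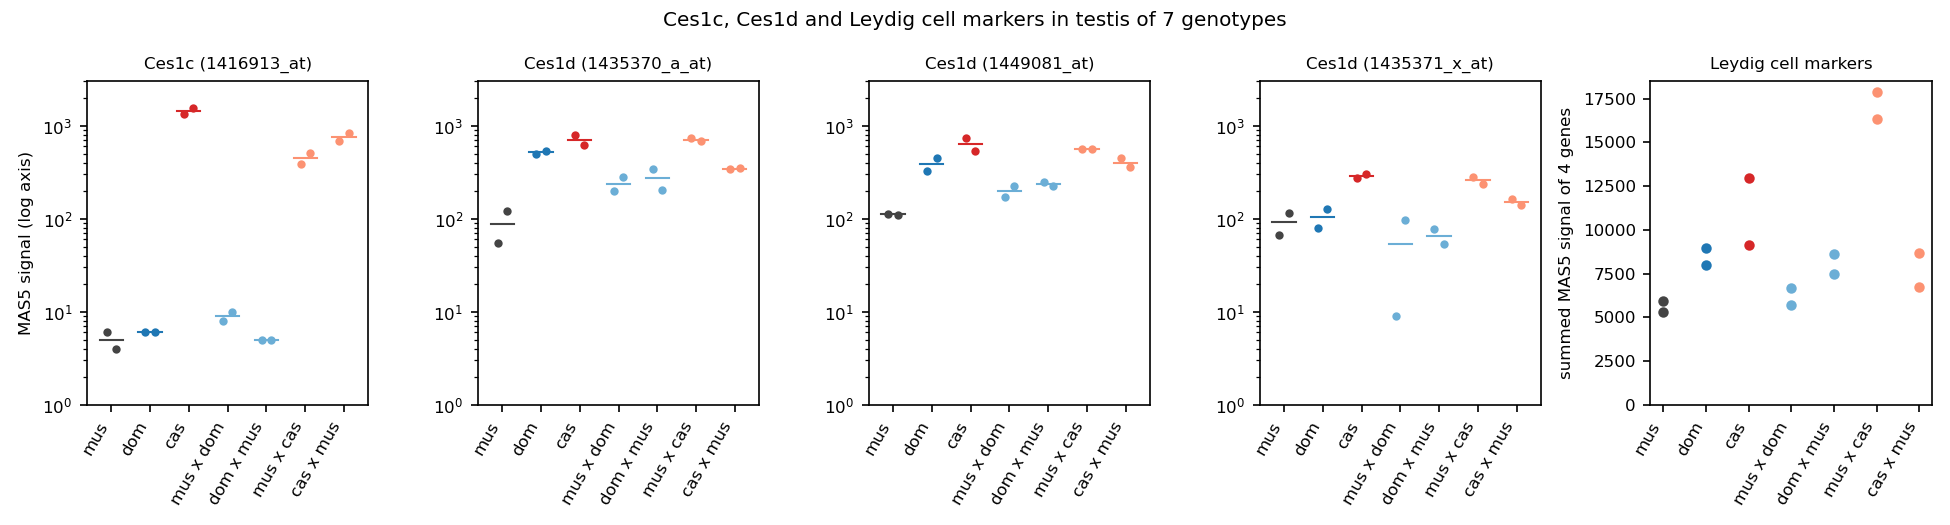
MAS5 signals on log axes in testis for Ces1c and the 3 Ces1d probe sets, with 1 point per male and the line at the mean of 2, and, on a linear axis, the summed signal of 4 Leydig cell marker genes. Ces1c is at 10 or below outside the genotypes with a castaneus parent, and the Leydig cell sum is lowest in musculus and highest in musculus x castaneus F1.

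In F1 testis, 1435370_a_at of Ces1d ranged from 198 to 341 in the domesticus cross, between the parents. In the castaneus cross it was 733 and 683 in musculus x castaneus males, at the castaneus level, and 340 and 355 in castaneus x musculus males. Against the log2 midparent the castaneus cross was higher by 0.87 ± 0.20 for 1435370_a_at (adjusted p = 0.00886) and 0.72 ± 0.15 for 1449081_at (adjusted p = 0.00582). With the castaneus x musculus F1 alone these were 0.39 and 0.49 (adjusted p = 0.687 and 0.485) and were not called. In the domesticus cross 1449081_at exceeded musculus by 0.80 (adjusted p = 0.0258) and lay below domesticus (-0.75 ± 0.18, adjusted p = 0.0493), calls lost in 5 and 10 of 11 alternative settings. Markers of Leydig cells, the steroid-producing cells between the testis tubules, had the same order of parents as Ces1d but not of all F1. Their summed signal, over the 4 of 7 genes with a probe set, none of them at 0, was 5284 to 5916 in musculus, 8013 to 8968 in domesticus and 9132 to 12989 in castaneus. It was 16314 to 17853 in musculus x castaneus F1, above castaneus, where 1435370_a_at lay within the castaneus range, and 6710 to 8657 in castaneus x musculus F1. In the domesticus cross it was 5727 to 6680 in musculus x domesticus F1 and 7475 to 8627 in domesticus x musculus F1. The latter overlapped domesticus, whereas 1435370_a_at read 341 and 204 there, below both domesticus males. Adipocyte markers, over the 5 of 8 genes with a probe set, summed to 5100 to 5388 in musculus, 5318 to 5523 in domesticus, 6733 to 7056 in castaneus, 3716 to 4138 in musculus x castaneus F1 and 3529 to 5375 in castaneus x musculus F1. The part of either cell type in the Ces1d differences was not tested, and in bulk tissue more cells of a type and more RNA per cell cannot be told apart.

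The 5 probe sets tested in testis belong to Ces1c, Ces1d and Ces3a/Ces3b, with 3 of them reading Ces1d, so counts over them repeat 1 gene. Between domesticus and musculus 2 were called, both of Ces1d (12.8% of all probe sets tested). Between castaneus and musculus 4 were called, of 2 genes (13.5%), and between castaneus and domesticus 1, Ces1c (12.4%). The Ces1c calls carry the limit that it passed the filter through the genotypes with a castaneus genome, and it was not tested with an offset of 1, so nothing is read from these counts against their background. Against the log2 midparent 3 were called in the castaneus cross, where 17.4% of all probe sets were, and 0 in the domesticus cross (0.414%). With a linear midparent limma called 0 in the castaneus cross (16.5% of all) and in the domesticus cross (0.0074%). In these 3 cases 0 members had an unadjusted p under 0.05. Between the reciprocal F1 of the castaneus cross 2 were called: Ces1c was lower (-0.74 ± 0.23, adjusted p = 0.0298) and Ces1d, by 1435370_a_at, was higher (0.96 ± 0.28, adjusted p = 0.0206) with a musculus mother. In that comparison 28.4% of all probe sets were called and the median of all was 0.24, so the whole testis profile differed between these F1. Both member calls were lost without any 1 of the 4 arrays. Between the reciprocal F1 of the domesticus cross limma called 0 (0.204%), with 1 at an unadjusted p under 0.05. Against musculus, F1 counts were 2 in the domesticus cross (4.24%) and 3 in the castaneus cross (22.8%), and against the other parent 1 (2.65%) and 1 (11.5%). Limma placed 0 outside both parents (0.0% and 1.13% of all), with 0 at an unadjusted p under 0.05.

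The probe set of Ces3a and Ces3b lay between 139 and 327 in testis and was not called in any genotype comparison there. Its largest difference from musculus was 0.60 in castaneus (95% interval 0.16 to 1.03, adjusted p = 0.0706).

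Brain gave no member above the filter: the 11 probe sets read between 1 and 130, and 0 of 11 were tested. Across tissues, a fit of all 42 arrays with the animal as a random block tested 9 of the 11, leaving out Ces1g and Ces2b as too weak on average. All 9 were higher in liver than in brain, by 4.69 to 9.32, where 38.1% of all probe sets were called higher and 84.8% were called in either direction. All 9 were also higher in liver than in testis, by 4.64 to 8.52, against 47.0% called higher and 87.1% in either direction. Over all probe sets the medians of these 2 comparisons were -0.10 and 0.11. The filter lets a liver gene through by its liver level, and without it Ces1g and Ces2b differed from brain by 4.30 and 3.38.

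**Figure D5:**
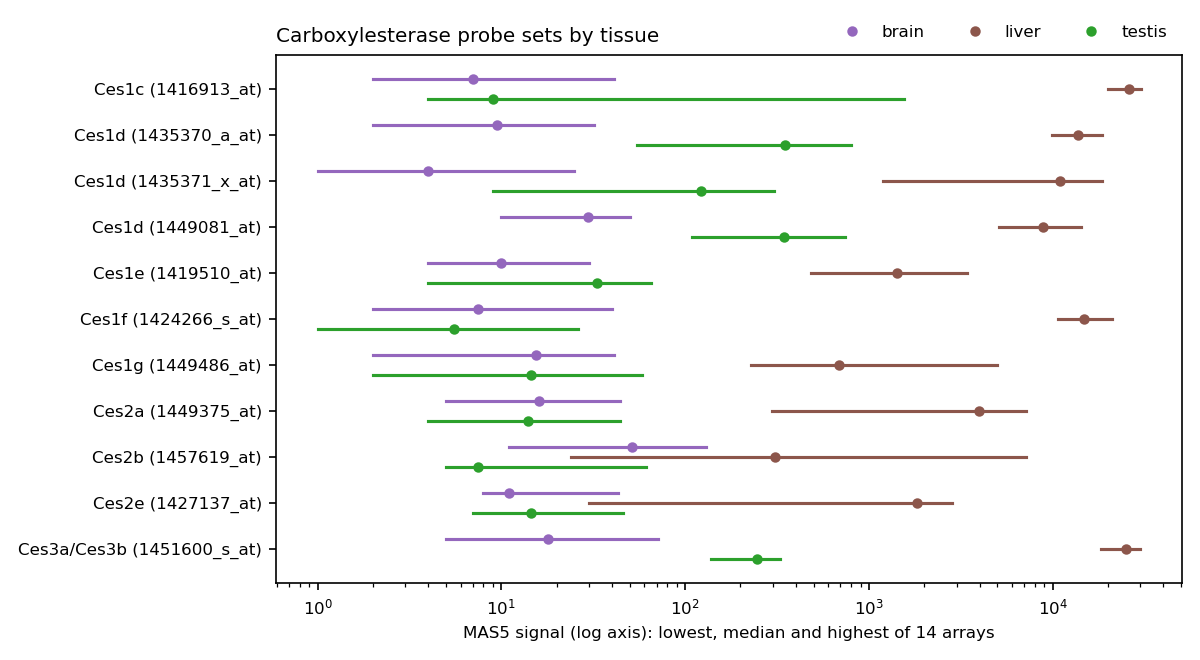
Lowest, median and highest MAS5 signal over 14 arrays in each tissue, on a log axis, for the 11 carboxylesterase probe sets. In brain all lie at 130 or below, and in liver Ces2b and Ces2e reach from the brain range to 7132 and 2838.

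Testis exceeded brain for 6 of the 9 (35.4% of all probe sets were called higher and 86.9% in either direction), namely the 3 Ces1d probe sets (2.02 to 3.10), Ces3a/Ces3b (2.31), Ces1c (1.80) and Ces1e (0.42), while the median of all was -0.25. The Ces1c value averages genotypes at the floor with the castaneus-bearing ones. Ces1e read 4 to 30 in brain and 4 to 65 in testis, near the offset, so its small difference is between weak signals. Ces1f, Ces2a and Ces2e differed between testis and brain by -0.08 to 0.04 and were not called. Whether a parental difference depended on tissue was tested in the same fit. For domesticus minus musculus 2 of 9 member probe sets differed between liver and brain (4.84% of all probe sets) and 4, of 2 genes, between liver and testis (10.8%). For castaneus minus musculus the counts were 2 (5.15%) and 6, of 5 genes (11.6%), and for castaneus minus domesticus 3 (5.11%) and 4 (10.2%). The 3 Ces1d probe sets are among the 9, so these counts can repeat 1 gene. The Ces2a excess over musculus, for instance, was larger in liver than in testis by 3.54 ± 0.46 in domesticus and 3.60 ± 0.46 in castaneus (adjusted p = 3.4e-06 and 2.7e-06), and the Ces2a signal in testis was 4 to 44.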

How the data were processed

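Biotin-labelled RNA of 42 samples was measured on 1-colour arrays. The authors deposited 1 linear intensity per probe set and array. Per the submitters' processing notes they used MAS5, for which no version, setting or detection call is given in the sources used here. Array means after trimming 2% at each end were 496.87 to 498.59, medians 95 to 183, and 1063 values were 0. Genes were named from the platform annotation (34945 probe sets with 1 symbol, 932 with several, 9160 with none). No sequence or genome was used here.

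Computed here: log2(signal + 31); a filter that drops probe sets whose mean log2 value in the tissue lies below its 40th percentile; limma 3.58.1 in R 4.3.3 (lmFit, eBayes with trend) over 7 genotypes, with 7 residual degrees of freedom per tissue; two-sided tests; Benjamini-Hochberg over all 27022 probe sets tested. The 42-array fit took the animal as a random block (estimated correlation 0.246), since same-numbered tissues of a genotype correlated above 0.1 in 21 of 21 pairs. An F1 was outside both parents where it differed from each in 1 direction, by the larger p. The scripts were tested on simulated data. Labels describe replicates as separate males, and 2 per genotype limit the precision.

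The members and gene lists were chosen with earlier results of these data known. All member probe sets are accounted for; results turn on those called, a gene is led by its brightest probe set, other genes come from the lists by their brightest probe set, and likeness takes the 3 genes of highest correlation. Alternatives were offsets of 1 and 100, no filter, quantile normalization, the replicate number as a block, leaving out arrays, a linear midparent, each F1 alone and no animal block. Leaving out each male from the 42-array fit, and the alternatives for F1 against each parent, were chosen after seeing the data.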

Additional observations from a re-analysis of the deposited data

Results flagged for a closer look

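With 2 males per genotype, no test for an outlying male within a genotype was made. The parental differences that depended on tissue, by the difference of differences in the 42-array limma fit (log2 scale, adjusted p under 0.05), are given here by gene. Ces1g and Ces2b did not pass the filter of that fit. With no filter, Ces2b was called for castaneus minus musculus (liver minus brain 4.06, liver minus testis 5.23) and castaneus minus domesticus (3.90 and 4.80). Ces1g was called for domesticus minus musculus (3.35 and 2.91), and its castaneus minus musculus values of 2.38 and 2.04 were not called.

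For Ces2a, the domesticus minus musculus difference was larger in liver than in brain by 3.85 and than in testis by 3.54, and the castaneus minus musculus difference by 3.88 and 3.60. For Ces2e, the castaneus minus musculus difference in liver minus that in brain was -5.64 and minus that in testis -5.59, and the castaneus minus domesticus values were -5.43 and -4.97. Both genes read 46 or less in every brain and testis array.

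For Ces1c, the castaneus minus musculus difference in liver minus that in testis was -5.61, and the castaneus minus domesticus value was -5.59. Here it was testis that differed between the parents.

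For Ces1d, liver minus testis values of 1435370_a_at were -2.31 for domesticus minus musculus and -2.21 for castaneus minus musculus, and those of 1449081_at were -1.78 and -1.86. The probe set 1435371_x_at, which alone of the 3 was low in domesticus liver, gave -2.84 for domesticus minus musculus in liver minus brain and -3.05 in liver minus testis. Its castaneus minus domesticus values were 3.42 and 1.93.

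For Ces1e, castaneus minus domesticus was -2.35 in liver minus brain and -2.61 in liver minus testis, and castaneus minus musculus was -1.94 in liver minus testis. Ces1e read 4 to 30 in brain and 4 to 65 in testis, near the offset, and passed the filter in neither tissue alone. In liver, castaneus minus musculus was -0.89 and was not called. The -1.94 became -1.54 without the second musculus male and -1.37 without the first castaneus male.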

How the results depend on the processing

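Of 62 single differences called, 41 kept their direction and their call under every alternative computed for them, and 21 lost the call or, in 1 case, the direction. The 62 were 26 between parents, against the midparent or between reciprocal F1, 15 of F1 against each parent and 21 parental differences that depended on tissue. Differences between tissues themselves were not among them. With a linear midparent, Ces1c in testis of the castaneus cross reversed to -0.30, and the counts called against the midparent were 0 in liver and 0 in testis, in place of 2 and 3. The liver count was 1 with an offset of 1, no filter, quantile normalization or either F1 alone, and 1 to 2 when an array was left out. The testis count was 1 with the castaneus x musculus F1 alone. The testis count between reciprocal castaneus F1 was 1, in place of 2, with an offset of 1 or no filter, and 0 when any array was left out.

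With an offset of 1 fewer members passed the filter. Testis counts were then 0 for castaneus minus domesticus and 2 for castaneus minus musculus, and counts of tissue-dependent differences were 1 and 1 (castaneus minus domesticus, brain and testis), 0 and 3 (castaneus minus musculus) and 0 and 2 (domesticus minus musculus). An offset of 100 gave 3 for castaneus minus domesticus in testis. Alternatives for F1 against each parent were chosen after seeing the data. In testis the count against castaneus, 1, became 0 with an offset of 1 and 2 with an offset of 100 or quantile normalization. That against domesticus, 1, became 0 with an offset of 1, no filter or the replicate block, 2 with quantile normalization, and 0 to 1 when an array was left out. That of the domesticus cross against musculus, 2, became 1 with an offset of 100 and 0 to 2 when an array was left out, and in liver that against domesticus was 1 to 2. The cause was not tested otherwise.

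Replicate numbers did not pair genotypes (32 of 63 correlations above 0.1). With the number as a replicate block, 39 single calls were kept, for example 1.70 for Ces2e against the midparent, and 2 were lost (Ces2e, liver, castaneus cross F1 minus musculus, -0.96, adjusted p = 0.0549, and Ces1d 1449081_at, testis, domesticus cross F1 minus domesticus, -0.75, adjusted p = 0.0617). In the 42-array fit, leaving out 1 male lost calls only of Ces1e, of Ces1d 1435371_x_at (castaneus minus domesticus, liver minus testis, 1.38 to 2.49) and of 1449081_at. With 2 males per genotype and signals near the offset, levels of members in brain and of Ces2e in castaneus liver could not be resolved.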
